A study of Mus musculus with 13 samples.

Results

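Transcripts of 10 genes of the transforming growth factor beta (TGF-beta) pathway were compared between mammary tumours of Fbxw7-deficient mice and wild-type mammary glands: the ligands Tgfb1, Tgfb2 and Tgfb3, the latent-ligand carrier Ltbp1, the receptors Tgfbr1, Tgfbr2 and Tgfbr3, the signal carriers Smad3 and Smad7, and the homeobox repressor Tgif1. The members were taken by symbol, with no threshold on their values, and all 10 were found among the 38279 symbols of the count table and passed the filter on low counts. The tumour group held 6 libraries of mammary tumour tissue from Cre-positive mice, at ages of 25, 32, 39, 19, 53 and 25 weeks (tumours 1 to 6). The gland group held 4 libraries of whole mammary gland from Cre-negative mice labelled WT, glands 1 to 3 at 20 weeks and gland 4 at 40 weeks. Animals of both groups were mated at 12 weeks of age, which in the Cre-positive mice induced excision of Fbxw7, the gene of the substrate-binding subunit of an SCF ubiquitin ligase. The promoter that drives Cre and the excised exons are not given in the sources used here, and genotype, tumour state, age and cell make-up differ between the groups at once and cannot be told apart.

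TGF-beta is secreted in a latent complex, in which the mature ligand stays bound to its own propeptide and to a latent TGF-beta binding protein, and integrins or proteases release it. The free ligand joins the type II receptor to the type I receptor kinase, with Tgfbr3 (betaglycan) as a presenting co-receptor, and the type I receptor phosphorylates Smad2 and Smad3, which enter the nucleus with Smad4. Tgif1 recruits corepressors to Smad2 and Smad3 and so limits the response, and its protein is a reported substrate of the Fbxw7 ligase. In the mammary gland the pathway is known for restraining growth of ductal epithelium and for shaping stroma. RNA levels do not measure the Tgif1 protein, on which the ligase acts.

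Counts in the libraries ranged from 13723065 (gland 3) to 48353114 (gland 2), and raw counts of the 10 genes from 74 (Smad7 in tumour 1) to 13657 (Tgfbr2 in gland 2). Values below are CPM, each count relative to the library total scaled by TMM, edgeR's trimmed-mean factors. These factors were 0.422 in tumour 1 and 0.58 in gland 4, against 0.889 to 1.41 in the other libraries. Values of tumour 1 and gland 4 therefore rest most on the scaling. Fbxw7 was at 15.1 to 47.3 CPM in the tumours (median 30.8), and at 14.3, 17.8, 18.4 and 83.6 CPM in glands 1 to 4. The excised part is not given and the gene total may include exons outside it, so it is no check of the genotype labels. Luminal epithelial markers were present in every library, at a summed 1752 to 4084 CPM in tumours and 458 to 766 CPM in glands. Salivary markers made up 44.1% of all counts in tumour 1 and 17.3% in tumour 6, against at most 0.0387% in the other tumours and 0.0528% in the glands. Skeletal muscle markers made up 5.61% of counts in gland 4, and mitochondrial transcripts 37.5%. The counts of calls are also given without these 3 libraries.

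Sequences upstream of Tgif1 and Tgfbr2 are shown because Tgif1 rose in the tumours and Smad complexes act through short DNA motifs. Tgfbr2 did not pass the test given below, but in TMM-scaled CPM it lay below all glands in 5 of 6 tumours. RefSeq start windows were found for 7 of the 10 genes, 13 windows in all (build GRCm38.p6), and none for Tgfbr3. Each window shown is the 250 bases before an annotated start, on the gene's own strand, without bases of annotated exons, and capitals mark CAGAC or its reverse complement, a core of Smad binding sites. The Tgif1 window lies on the minus strand at chr17:70851735-70851984 and the Tgfbr2 window on the minus strand at chr9:116175364-116175613.
Tgif1: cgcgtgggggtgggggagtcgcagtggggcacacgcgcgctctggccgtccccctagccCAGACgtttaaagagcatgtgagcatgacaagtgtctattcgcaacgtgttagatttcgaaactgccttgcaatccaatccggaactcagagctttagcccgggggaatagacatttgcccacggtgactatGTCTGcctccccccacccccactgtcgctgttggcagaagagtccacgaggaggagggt
Tgfbr2: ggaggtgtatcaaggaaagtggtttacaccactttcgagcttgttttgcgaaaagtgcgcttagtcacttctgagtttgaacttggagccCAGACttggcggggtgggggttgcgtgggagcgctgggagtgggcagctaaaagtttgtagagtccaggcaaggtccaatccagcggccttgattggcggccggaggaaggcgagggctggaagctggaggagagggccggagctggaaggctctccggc
CAGAC occurred on either strand in 3 of 5 Tgif1 windows, in 8 of the 13 windows of the members, and in 42.2% of 32851 windows of the same length in the RefSeq table. Of the 5 Tgif1 windows, the one shown is the only one without exon bases and holds the most matches, 2. The palindrome GTCTAGAC (0.167% of all windows) and TGACAG, a motif bound by Tgif proteins (15.9%), occurred in none of the 13. TGACAG followed by AC would share bases with CAGAC. These matches are letters in a window and no measure of binding, and a gene total does not show which of the Tgif1 starts was used.

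Tgif1 rose and Tgfbr3 fell in the tumours, and the other 8 genes did not pass the test over all genes. Of 20101 genes tested, 15.1% passed (edgeR quasi-likelihood test, two-sided, Benjamini-Hochberg adjusted p below 0.05), 6.89% higher and 8.19% lower, beside 1 member higher and 1 lower. The same 2 members were those whose groups did not overlap in TMM-scaled CPM. Over all tested genes, every tumour lay above every gland in 6.54% and below in 7.50%, 14.0% in all. The median log2 fold change was -0.42 over the 10 members and 0.17 over all tested genes. Without tumours 1 and 6, Tgif1 and Tgfbr1 passed as higher and Tgfbr2 and Tgfbr3 as lower, in a fit that called 21.7% of all tested genes, 10.1% higher and 11.6% lower. Without these and gland 4, Tgif1 passed as higher and Tgfb1, Tgfbr2 and Tgfbr3 as lower, where 22.1% of all tested genes were called, 8.64% higher and 13.5% lower.

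**Figure D1:**
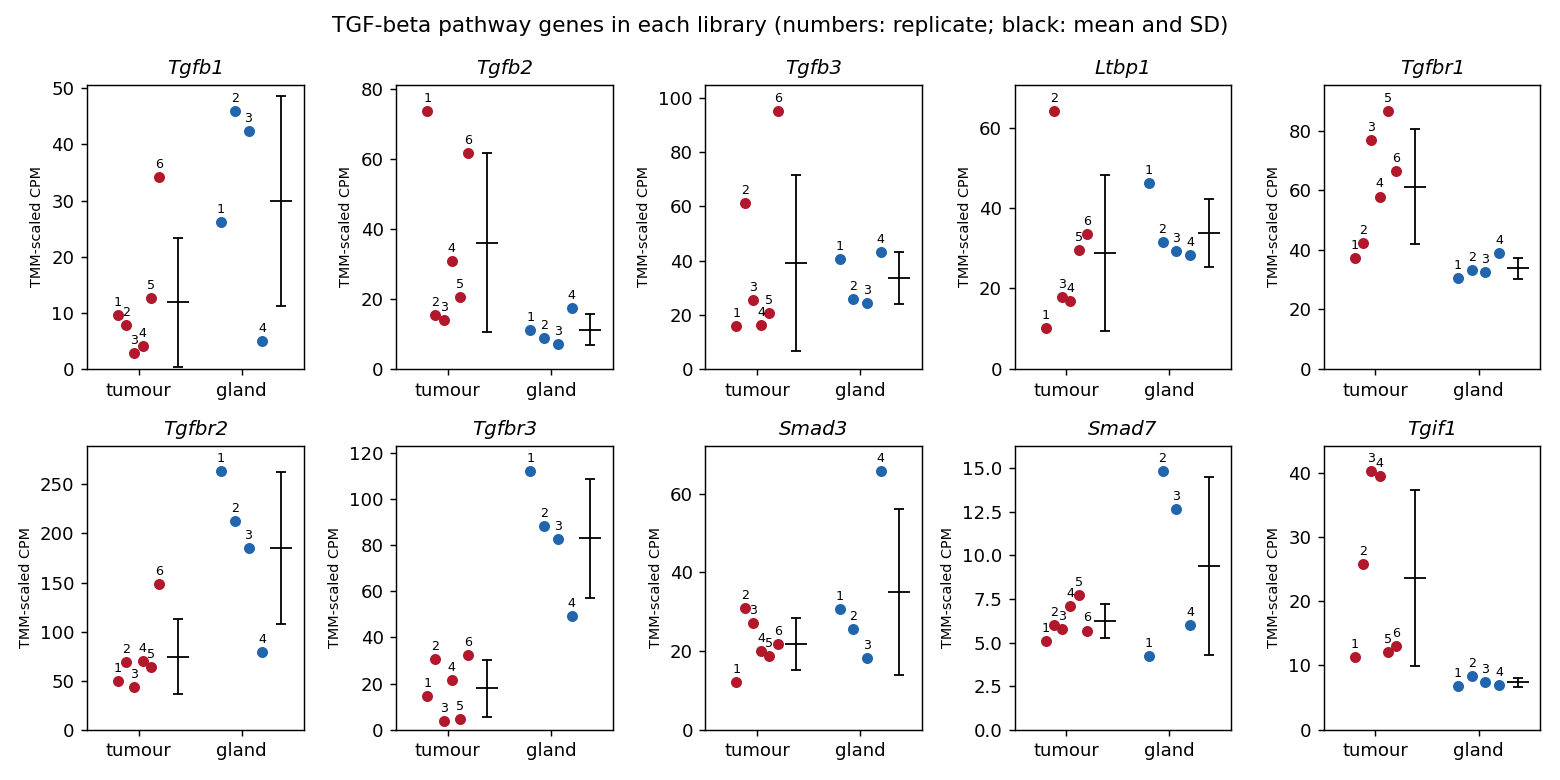
TMM-scaled CPM (vertical axes) of the 10 genes in each of 6 tumour libraries (red) and 4 gland libraries (blue), with replicate numbers beside the points and the mean with SD in black. All tumours lie above all glands for Tgif1 and below all glands for Tgfbr3, while gland 4 stands with the tumours for Tgfb1.

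Tgif1, on chromosome 17, was at 11.2 CPM in the lowest tumour, 40.2 CPM in the highest and 19.4 CPM at the median of 6, against 6.76, 8.31, 7.46 and 6.99 CPM in glands 1 to 4. Tumours 2, 3 and 4 were high, at 25.8 to 40.2 CPM, tumours 1, 5 and 6 stood at 11.2 to 12.96 CPM, and no tumour overlapped the glands. For tumour 1 this rests on its TMM factor of 0.422. By unscaled library totals, tumour 1 (164 of 34865913 counts) lay between gland 4 (110 of 27141874) and gland 1 (237 of 32548237). The means were 23.6 ± 13.7 CPM in tumours (SD, n = 6) and 7.38 ± 0.68 CPM in glands (SD, n = 4), and it rose by 1.68 ± 0.45 on the log2 scale (SE; adjusted p = 0.0311, edgeR). On the TMM scale the gland values were close together although gland 4 differed from the others in age, muscle content and mitochondrial share. By unscaled library totals they were further apart, with gland 4 lowest (110 of 27141874 counts) and gland 2 highest (532 of 48353114). The change was 1.97 on the log2 scale without tumours 1 and 6 (adjusted p = 0.00916, edgeR), and 1.84 without these and gland 4 (adjusted p = 0.0237). The call was lost without tumour 2 or 4 or any 1 of the 4 glands (adjusted p of 0.0530 to 0.0944, edgeR), with log2 fold changes of 1.47 to 1.82 over the 10 fits without 1 library. Fits without 1 gland called 1053 to 2419 genes in all, against 3030 with every library.

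Luminal markers moved with Tgif1. In TMM-scaled CPM, where both values share the library's factor, the 6 tumours had the same order in both, unlike the 4 glands. Tumour 1 was lowest, then tumours 5, 6, 2 and 4, and tumour 3 was highest. By unscaled library totals the orders differed, though tumour 1 was lowest in both. Luminal markers were then highest in tumour 2 (0.449% of counts) and Tgif1 in tumour 4 (2280 of 45391449 counts). Tumour 3, at 0.363% and 1624 of 45505300 counts, was highest in neither. All 10 luminal markers had positive log2 fold changes and 8 passed as higher. Set against the summed counts of these markers within a library, Tgif1 averaged a log2 ratio of -7.06 ± 0.43 in tumours (SD, n = 6) and -6.38 ± 0.36 in glands (SD, n = 4). On this scale Tgif1 was not higher in tumours: 4 of 6 tumours lay below all glands and none above them. The markers rose by more than Tgif1, with a median log2 fold change of 2.21, so a lower ratio follows from that. The part of the luminal share in the Tgif1 difference was not tested, and in whole tissue more cells of a type and more RNA per cell cannot be told apart.

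**Figure D2:**
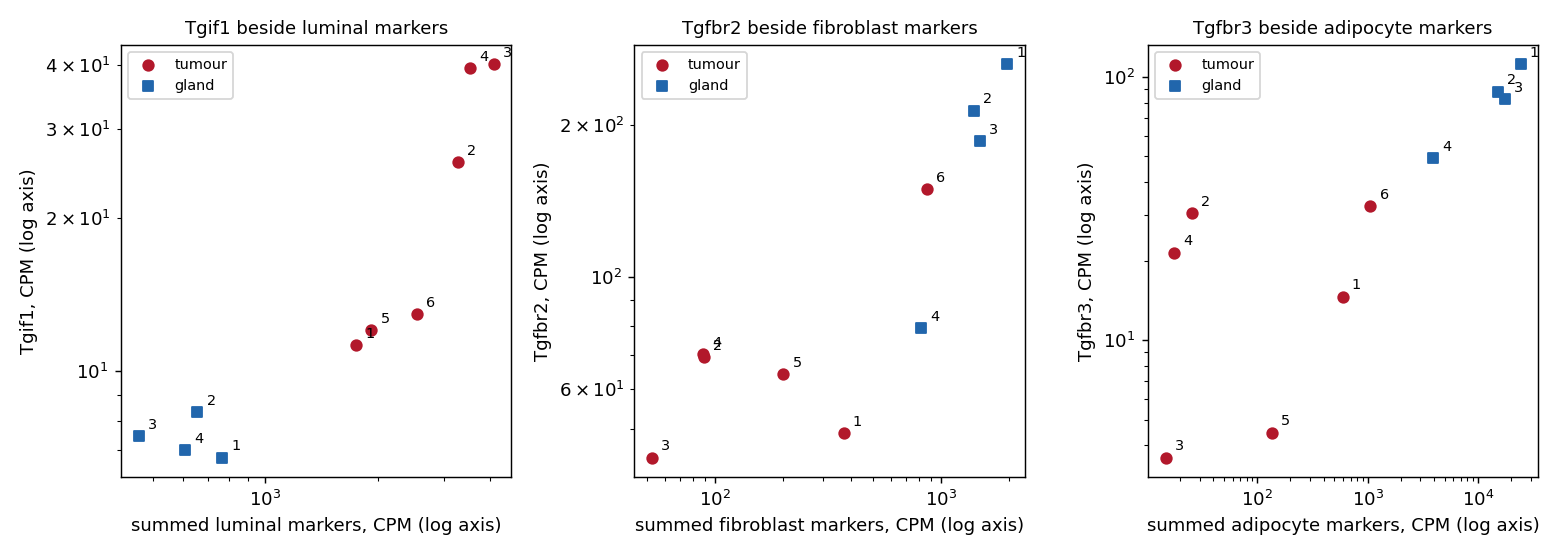
Level of Tgif1, Tgfbr2 and Tgfbr3 in CPM (vertical, log axis) beside the summed CPM of luminal, fibroblast and adipocyte markers (horizontal, log axis) in each library, tumours as red circles and glands as blue squares with replicate numbers. Tgif1 and the luminal sum have the same order over the 6 tumours on this TMM scale, though not by unscaled library totals. For adipocyte markers gland 4, at 3949 CPM, stands nearest to the tumours, which reach 1062 CPM.

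Tgif2, the close homologue of Tgif1, was rare except in 1 tumour. It was at 11.3 CPM in tumour 5 and at 0.26 to 0.68 CPM in the other tumours, against 0.97, 2.56, 1.11 and 0.13 CPM in glands 1 to 4 (log2 difference 0.89 ± 1.22, SE; adjusted p = 0.622, edgeR). The raw count ratio of Tgif1 to Tgif2 was near equality in tumour 5, at a log2 ratio of 0.099, and between 4.47 and 7.08 in the other 5 tumours. In glands 1 to 4 it was 2.80, 1.70, 2.74 and 5.78. Several of these ratios rest on few Tgif2 counts, such as 2 in gland 4, 5 in tumour 1 and 12 in tumour 3, and are imprecise. Per kilobase of exon, Tgif1 averaged 4.20 CPM in tumours and 1.31 CPM in glands, and Tgif2 0.58 CPM in tumours and 0.31 CPM in glands.

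Tgif1 also stood higher beside Smad3, a protein it represses. The log2 ratio of Tgif1 to Smad3 counts was -0.75 to 0.99 in tumours, against -2.18, -1.63, -1.28 and -3.23 in glands 1 to 4, and the groups did not overlap. The mean difference was 2.05, with 1.66 to 2.31 on leaving out any 1 library and a value inside this range on leaving out tumours 1 and 6 and gland 4. This ratio does not depend on scaling between libraries.

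Among the ligands, Tgfb1, on chromosome 7, the main form made by immune and stromal cells, was at 2.89 CPM in the lowest tumour, 34.1 CPM in the highest and 8.75 CPM at the median. In glands 1 to 4 it was at 26.3, 46.0, 42.4 and 4.96 CPM. Tumour 6 stood apart from the other tumours, which reached 12.7 CPM, and gland 4 lay within the tumour range. The log2 difference was -1.33 ± 0.71 (SE; adjusted p = 0.206, edgeR), and -2.07 without tumour 6, where it passed (adjusted p = 0.0490). Without tumours 1 and 6 and gland 4 it was -2.59 (adjusted p = 0.0142, edgeR). Macrophage markers were likewise highest in tumour 6, at 2753 CPM against 196 to 845 CPM in the other tumours, and lowest among glands in gland 4, at 340 CPM against 1184 to 1341 CPM in glands 1 to 3. B and T cell markers were also lowest among glands in gland 4, at 0.70 and 1.72 CPM. Among tumours they were highest in tumour 5, at 45.5 and 72.9 CPM, and not in tumour 6, at 10.4 and 8.39 CPM. The part of these cells in the Tgfb1 values was not tested.

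Tgfb2, on chromosome 1, was at 13.9 CPM in the lowest tumour, 73.8 CPM in the highest and 25.7 CPM at the median, against 11.1, 8.87, 7.24 and 17.4 CPM in glands 1 to 4. The 2 highest values were those of tumours 1 and 6, the libraries with salivary transcripts, and 4 of 6 tumours lay above all glands. The log2 difference of 1.69 ± 0.55 was as large as that of Tgif1 but had a wider spread and missed the threshold (SE; adjusted p = 0.0575, edgeR). It passed without tumour 3 (adjusted p = 0.0401, edgeR), and without tumours 1 and 6 the difference was 0.85 (adjusted p = 0.141, edgeR). Tgfb3, on chromosome 12, was at 15.8 to 95.4 CPM in tumours (median 23.1), against 40.7, 25.9, 24.5 and 43.2 CPM in glands 1 to 4. Tumours 2 and 6 stood above all glands and tumours 1, 4 and 5 below them, and the log2 difference was 0.22 ± 0.54 (SE; adjusted p = 0.792, edgeR), turning to -0.30 without tumour 6.

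The ligands changed rank between the tissues. Per kilobase of exon, Tgfb1 was the lowest of the ligands in 6 of 6 tumours and in 1 of 4 glands (gland 4), and Tgfb2 was the lowest in no tumour and in the other 3 glands. The mean levels per kilobase were 2.36 ± 2.27, 6.22 ± 4.42 and 11.6 ± 9.59 CPM for Tgfb1, Tgfb2 and Tgfb3 in tumours (SD, n = 6). In glands they were 5.93 ± 3.71, 1.93 ± 0.77 and 9.92 ± 2.88 CPM (SD, n = 4). Neighbours in each order overlapped within 1 SD of their means. The log2 ratio of Tgfb1 to Tgfb2 counts was below 0 in 6 of 6 tumours (-2.94 to -0.70) and in gland 4 (-1.81), and above 0 in glands 1 to 3 (1.24, 2.38 and 2.55). Ltbp1, which ties the latent ligand to the matrix, was at 10.2 to 64.2 CPM in tumours (median 23.7), against 46.3, 31.6, 29.2 and 28.2 CPM in glands 1 to 4, with a log2 difference of -0.24 ± 0.45 (SE; adjusted p = 0.734, edgeR). Tumour 2 alone stood above all glands, and 3 tumours stood below them.

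The receptors differed from each other in direction. Tgfbr3, on chromosome 5, was at 3.59 CPM in the lowest tumour, 32.4 CPM in the highest and 18.1 CPM at the median, against 111.9, 88.1, 82.6 and 49.2 CPM in glands 1 to 4. Tumours 3 and 5 were lowest, gland 4 was the lowest gland, and every tumour lay below every gland in TMM-scaled CPM. By unscaled library totals, tumours 2 and 6 (2015 of 48325044 and 1163 of 36236732 counts) lay above gland 4 (773 of 27141874). It fell by 2.21 ± 0.58 on the log2 scale (SE; adjusted p = 0.0299, edgeR). The means were 17.86 ± 12.48 CPM in tumours (SD, n = 6) and 82.9 ± 25.9 CPM in glands (SD, n = 4). The call was lost without tumour 4 or any 1 of glands 1 to 3 (adjusted p of 0.0532 to 0.0859, edgeR). Without tumours 1 and 6 and gland 4 the difference was -2.72 (adjusted p = 0.0375, edgeR). Adipocyte markers, all 9 of which fell, summed to 14.8 to 1062 CPM in tumours and 3949 to 24370 CPM in glands. The log2 ratio of Tgfbr3 to these markers averaged -2.80 ± 2.66 in tumours (SD, n = 6) and -7.32 ± 0.68 in glands (SD, n = 4), with no overlap of the groups. The markers fell by more than Tgfbr3, with a median log2 fold change of -6.15. A higher ratio in tumours follows from that and does not bear on the source of the fall. The part of fat cells in the fall of Tgfbr3 was not tested.

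Tgfbr2, on chromosome 9, the type II receptor that binds the ligand, was at 44.0 CPM in the lowest tumour, 149 CPM in the highest and 66.8 CPM at the median. In glands 1 to 4 it was at 263, 213, 186 and 79.1 CPM. Tumour 6 was the highest tumour and gland 4 the lowest gland, and the other 5 tumours lay below all glands in TMM-scaled CPM. By unscaled library totals, tumours 2, 4 and 5 lay above gland 4 (in tumour 5, 3448 of 38188173 counts, against 1244 of 27141874). The log2 difference of -1.32 ± 0.41 missed the threshold narrowly (SE; adjusted p = 0.0517, edgeR). It was -1.69 without tumour 6 and -1.63 without gland 4, and passed in both fits (adjusted p = 0.0177 and 0.0290, edgeR). Fibroblast markers were at 52.6 to 371 CPM in tumours 1 to 5 and 866 CPM in tumour 6. They were at 816 CPM in gland 4, against 1399 to 1958 CPM in glands 1 to 3. The part of fibroblasts in the Tgfbr2 values was not tested. Relative to fibroblast markers Tgfbr2 was higher in 5 of 6 tumours than in any gland, with mean log2 ratios of -1.34 ± 1.19 in tumours (SD, n = 6) and -2.99 ± 0.28 in glands (SD, n = 4). The markers fell by more than Tgfbr2, with a median log2 fold change of -1.90, so a higher ratio follows from that.

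Tgfbr1, on chromosome 4, the type I kinase, was higher in most tumours. It was at 37.2 CPM in the lowest tumour, 86.7 CPM in the highest and 62.2 CPM at the median, against 30.6, 33.3, 32.6 and 38.9 CPM in glands 1 to 4. In 5 of 6 tumours it lay above all glands, and the log2 difference of 0.86 ± 0.29 missed the threshold (SE; adjusted p = 0.0651, edgeR). It passed without tumour 1, the tumour that overlapped the glands (0.95, adjusted p = 0.0327, edgeR). Per kilobase of exon, Tgfbr2 was the highest of the receptors in 4 of 4 glands and Tgfbr1 the lowest, while in tumours Tgfbr3 was the lowest in 6 of 6 and Tgfbr1 or Tgfbr2 the highest in 3 each. The mean levels of Tgfbr1, Tgfbr2 and Tgfbr3 per kilobase were 9.37 ± 2.96, 9.08 ± 4.65 and 2.73 ± 1.91 CPM in tumours (SD, n = 6), and 5.18 ± 0.54, 22.6 ± 9.49 and 12.7 ± 3.95 CPM in glands (SD, n = 4). Within 1 SD of their means, Tgfbr3 and Tgfbr1 in glands did not overlap, while the other neighbours in each order did. The log2 ratio of Tgfbr1 to Tgfbr3 counts was 0.48 to 4.42 in tumours and -1.87, -1.40, -1.34 and -0.34 in glands 1 to 4, without overlap. That of Tgfbr1 to Tgfbr2 was -1.17 to 0.81 in tumours and -3.11, -2.68, -2.51 and -1.03 in glands 1 to 4, where tumour 6 overlapped gland 4.

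**Figure D3:**
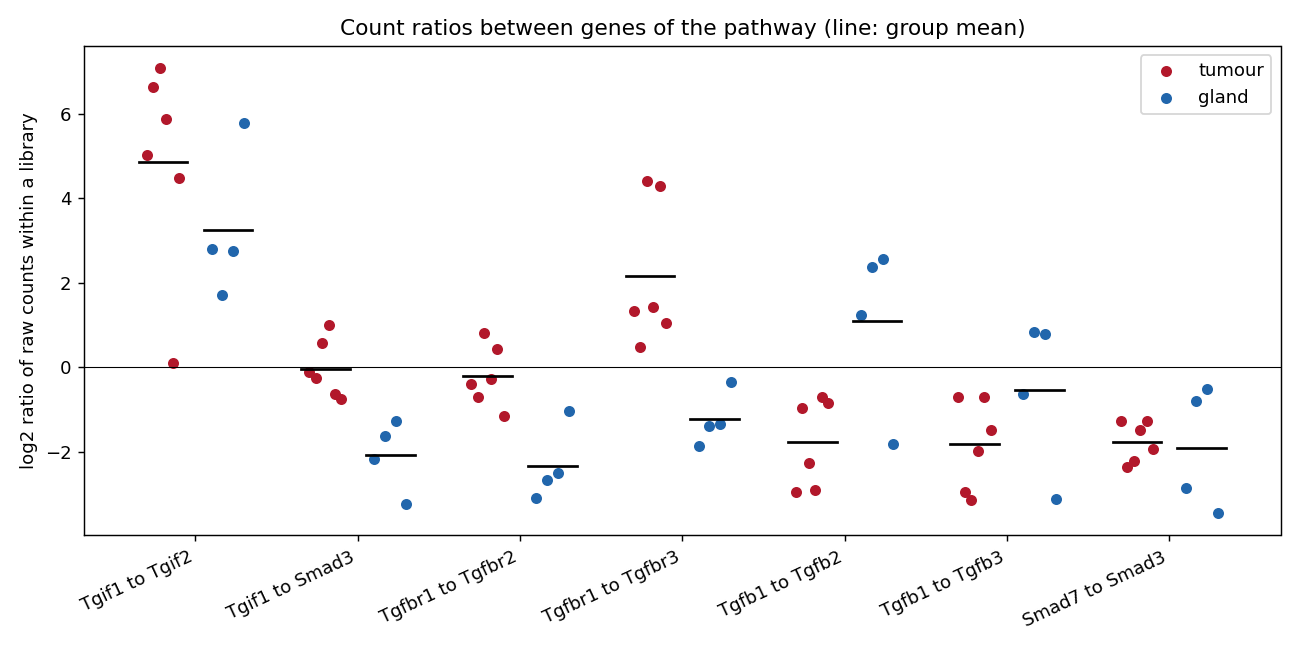
Log2 ratio of raw counts (vertical axis) for 7 pairs of genes within each tumour (red, left) and gland (blue, right) library, with a line at the group mean. The groups do not overlap for Tgif1 to Smad3 or Tgfbr1 to Tgfbr3, and a single gland, gland 4, reaches the tumours for Tgfbr1 to Tgfbr2 and Tgfb1 to Tgfb2.

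The Smad transcripts differed less. Smad3, on chromosome 9, which carries the signal to the nucleus, was at 12.2 to 30.8 CPM in tumours (median 20.9), against 30.7, 25.7, 18.2 and 65.6 CPM in glands 1 to 4. Tumour 1 alone lay below all glands, and gland 4 held the highest value (log2 difference -0.69 ± 0.38, SE; adjusted p = 0.22, edgeR). Without gland 4 the difference was -0.25. Smad7, on chromosome 18, the inhibitory Smad that the pathway itself induces, was at 5.07 to 7.72 CPM in tumours (median 5.90), a narrow range, against 4.22, 14.8, 12.6 and 5.98 CPM in glands 1 to 4. Glands 2 and 3 lay above all tumours and gland 1 below them (log2 difference -0.60 ± 0.38, SE; adjusted p = 0.289, edgeR), and the SD was 0.98 CPM in tumours and 5.11 CPM in glands. Glands 2 and 3 were also the glands with the most T cell markers, at 484 and 378 CPM, against 15.8 and 1.72 CPM in glands 1 and 4, and the part of these cells was not tested.

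**Figure D4:**
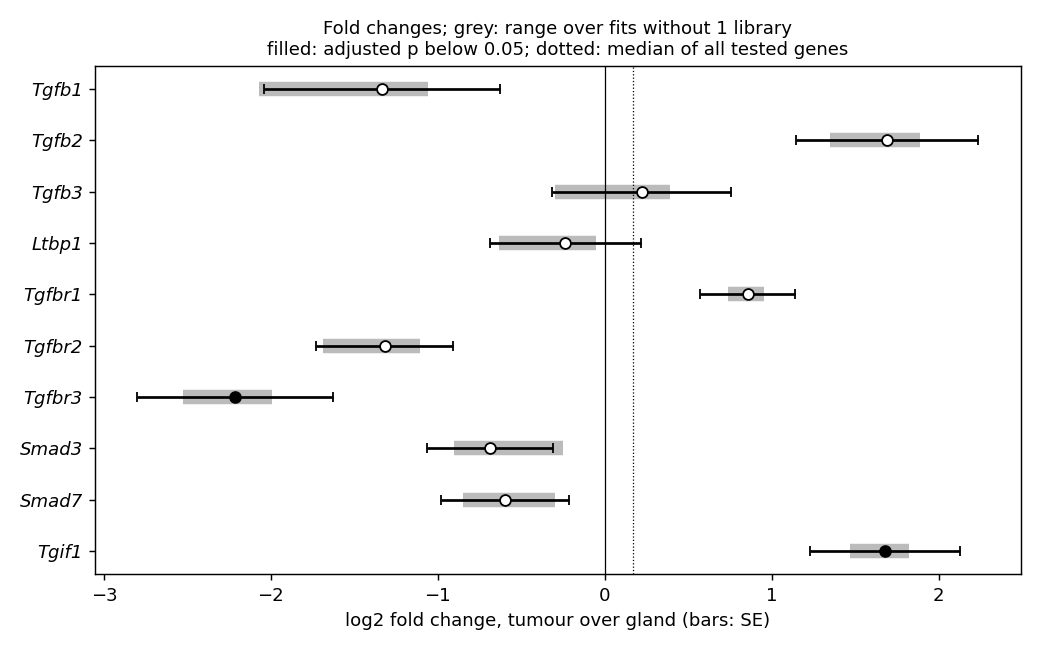
Log2 fold change, tumour over gland (horizontal axis, bars for SE), of the 10 genes, filled where the adjusted p was below 0.05, with the range over fits without 1 library in grey and the median of all tested genes as a dotted line. Tgif1 at 1.68 and Tgfbr3 at -2.21 are filled, and of the 10 grey ranges that of Tgfb3 alone crosses 0.

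The other genes of the pathway are read against the same background, 6.89% of all tested genes higher, 8.19% lower and a median of 0.17. Of 20 genes named from the lists below, 17 kept their call without tumours 1 and 6, all but Cdc25a, Ppm1a and Usp15. Without these and gland 4, 13 kept it, and Gdf11, Irx1, Irx2 and Pbx3 were lost as well. All 20 kept their direction in both fits. The log2 difference moved by over 1.5 times for Acvr1c (-4.96 without tumours 1 and 6), and for Zeb2 and Cdc25a (-3.77 and 0.64 without these and gland 4).

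Of 13 other genes of latency and activation, 1 rose and none fell, with a median log2 fold change of 0.09. Itgb8, the integrin subunit that with Itgav releases latent TGF-beta, was at 5.69 to 149 CPM in tumours (median 39.3), against 4.77, 4.81, 2.62 and 7.06 CPM in glands 1 to 4. It lay above all glands in 5 of 6 tumours, all but tumour 1, and rose by 3.53 ± 0.77 on the log2 scale (SE; adjusted p = 0.0153, edgeR), a call lost without gland 1 (adjusted p = 0.0544). Its partner Itgav was at 51.1 CPM on average in tumours and 35.8 CPM in glands (adjusted p = 0.310, edgeR). Of 11 other receptors of the superfamily, none rose and 1 fell (median 0.28), while upper-quartile scaling and the fit without tumour 5 gave 1 higher and none lower. Acvr1c, an activin and nodal receptor of fat cells, was at 0.14 to 3.23 CPM in tumours, against 9.96, 7.21, 7.35 and 20.0 CPM in glands 1 to 4, and fell by 3.16 ± 0.95 (SE; adjusted p = 0.0455, edgeR) beside the adipocyte markers. This call was kept without tumour 1 or 6 and lost in the other 8 fits without 1 library (adjusted p up to 0.0950).

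Of 16 other ligands and antagonists, 1 rose and 1 fell (median -0.36). Inhba, which encodes the subunit of activin A, a ligand that also signals through Smad2 and Smad3, was at 3.66 to 28.8 CPM in tumours (median 12.9), against 0.97, 0.80, 1.73 and 3.37 CPM in glands 1 to 4. Every tumour lay above every gland, and it rose by 2.99 ± 0.65 on the log2 scale (SE; adjusted p = 0.0151, edgeR), a call lost without gland 1 (adjusted p = 0.0541). Gdf11, a growth and differentiation factor, fell by 2.05 ± 0.63 (SE; adjusted p = 0.0493, edgeR), kept without tumour 1 or 3 and lost in the other 8 fits without 1 library (adjusted p up to 0.114).

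Of 18 other Smads and regulators, 1 rose and 2 fell (median -0.07). Pmepa1, a membrane protein that the pathway induces and that holds Smads back, was at 86.0 to 283 CPM in tumours (median 171), against 38.6, 32.0, 36.1 and 71.6 CPM in glands 1 to 4. All tumours lay above all glands in TMM-scaled CPM. By unscaled library totals, tumour 1 (1255 of 34865913 counts) lay below all glands, of which gland 4 was lowest (1126 of 27141874). Pmepa1 rose by 2.05 ± 0.41 on the log2 scale (SE; adjusted p = 0.0112, edgeR), and the call held in every fit without 1 library. Usp15, a deubiquitinase of the type I receptor and Smads, and Ppm1a, a phosphatase reported to act on Smad2 and Smad3, fell by 1.13 ± 0.31 and 0.91 ± 0.26 (SE; adjusted p = 0.0344 and 0.0383, edgeR). The Usp15 call was lost without tumour 2, 4 or 5 or gland 1, 2 or 4 (adjusted p up to 0.0872). The Ppm1a call was kept without tumour 1 or gland 3 and lost in the other 8 such fits (adjusted p up to 0.114).

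Of 22 TALE homeobox genes, the class of Tgif1, and Tgif1 corepressors, 20 were tested, of which 4 rose and none fell (median 0.82). Ctbp2, of the CtBP corepressor family, was at 42.0 to 111 CPM in tumours, against 22.3, 15.6, 19.1 and 24.5 CPM in glands 1 to 4, and rose by 1.73 ± 0.37 (SE; adjusted p = 0.0139, edgeR) in every fit without 1 library. Its relative Ctbp1, a known partner of Tgif1, averaged 132 ± 42.8 CPM in tumours (SD, n = 6) and 145 ± 20.3 CPM in glands (SD, n = 4; adjusted p = 0.764, edgeR). The homeobox genes Irx2, Irx1 and Pbx3 rose by 1.97 ± 0.53, 2.37 ± 0.70 and 1.32 ± 0.40 (SE; adjusted p = 0.0308, 0.0427 and 0.0482, edgeR). The Irx2 call was lost without tumour 4 or any 1 gland, the Irx1 call also without tumour 2 or 6, and the Pbx3 call in all such fits but that without tumour 6 (adjusted p up to 0.136).

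Of 22 genes that TGF-beta is known to induce, 2 passed as higher and 3 as lower, with a median log2 fold change of -0.47. Called or not, 6 of the 22 had a positive log2 fold change, against 11254 of 20101 tested genes. Ccn2, a matricellular growth factor, was at 9.12 CPM in tumour 1 and 61.1 to 142 CPM in the other tumours, against 4.59, 6.12, 7.74 and 5.60 CPM in glands 1 to 4. It rose by 3.72 ± 0.65 on the log2 scale (SE; adjusted p = 0.00717, edgeR), and the call held in every fit without 1 library. In TMM-scaled CPM it lay above all glands in 6 of 6 tumours. By unscaled library totals, tumour 1 (133 of 34865913 counts) lay below glands 1 to 3 (in gland 1, 161 of 32548237). Timp1, a metalloproteinase inhibitor, rose by 2.79 ± 0.73 (adjusted p = 0.0286, edgeR), a call lost without tumour 4 or any 1 gland (adjusted p up to 0.0856). The genes that fell were the mesenchymal transcription factors Zeb1, Twist1 and Zeb2, at -2.98 ± 0.68, -2.61 ± 0.62 and -2.34 ± 0.61 (SE; adjusted p = 0.0187, 0.0208 and 0.0289, edgeR). For each, every tumour lay below every gland in TMM-scaled CPM. By unscaled library totals, tumour 6 lay above gland 4 for Twist1 (376 of 36236732 against 196 of 27141874 counts) and Zeb2 (1705 against 944 counts). The calls of Zeb1 and Twist1 were lost without gland 1, and that of Zeb2 without tumour 4 or 5 or gland 1, 2 or 3 (adjusted p up to 0.0748).

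Fibroblast markers, of which 2 of 8 fell and none rose (median -1.90), moved beside the fall of Zeb1, Twist1 and Zeb2. The collagens of the induced list were not called, with Col1a1 at -0.69 ± 0.96, Col1a2 at -0.56 ± 0.72 and Col3a1 at -1.58 ± 1.05 on the log2 scale (SE; adjusted p = 0.629, 0.602 and 0.307, edgeR). Without tumours 1 and 6, 3 genes of the induced list passed as higher and 5 as lower, where calls over all genes increased to 4255 from 3030. The part of stromal cells in these differences was not tested.

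Of 5 genes known to be repressed by TGF-beta in epithelium, 3 rose and 1 fell, with a median of 1.15. Id2, an inhibitor of differentiation factors, was at 64.3 to 305 CPM in tumours, against 31.6, 36.95, 37.6 and 18.2 CPM in glands 1 to 4, and rose by 2.44 ± 0.44 (SE; adjusted p = 0.00799, edgeR). Its relative Id3 was at 2.95 to 15.6 CPM in tumours, against 70.6, 45.8, 41.9 and 23.0 CPM in glands 1 to 4, and fell by 2.18 ± 0.44 (SE; adjusted p = 0.0118, edgeR). Both calls held in every fit without 1 library, and neither gene's groups overlapped in TMM-scaled CPM. By unscaled library totals both did. For Id2, tumour 1 (938 of 34865913 counts) lay below glands 1 to 3 (in gland 1, 1106 of 32548237). For Id3, tumours 5 and 6 (839 of 38188173 and 532 of 36236732) lay above gland 4 (361 of 27141874). Cdc25a, a phosphatase of cell cycle entry, rose by 1.15 ± 0.35 (SE; adjusted p = 0.0493, edgeR), a call kept without tumour 3 alone (adjusted p up to 0.144). Myc passed as well (1.35 ± 0.40, SE; adjusted p = 0.0419, edgeR), kept without tumour 1 or 5 and lost in the other 8 fits without 1 library (adjusted p up to 0.133).

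**Figure D5:**
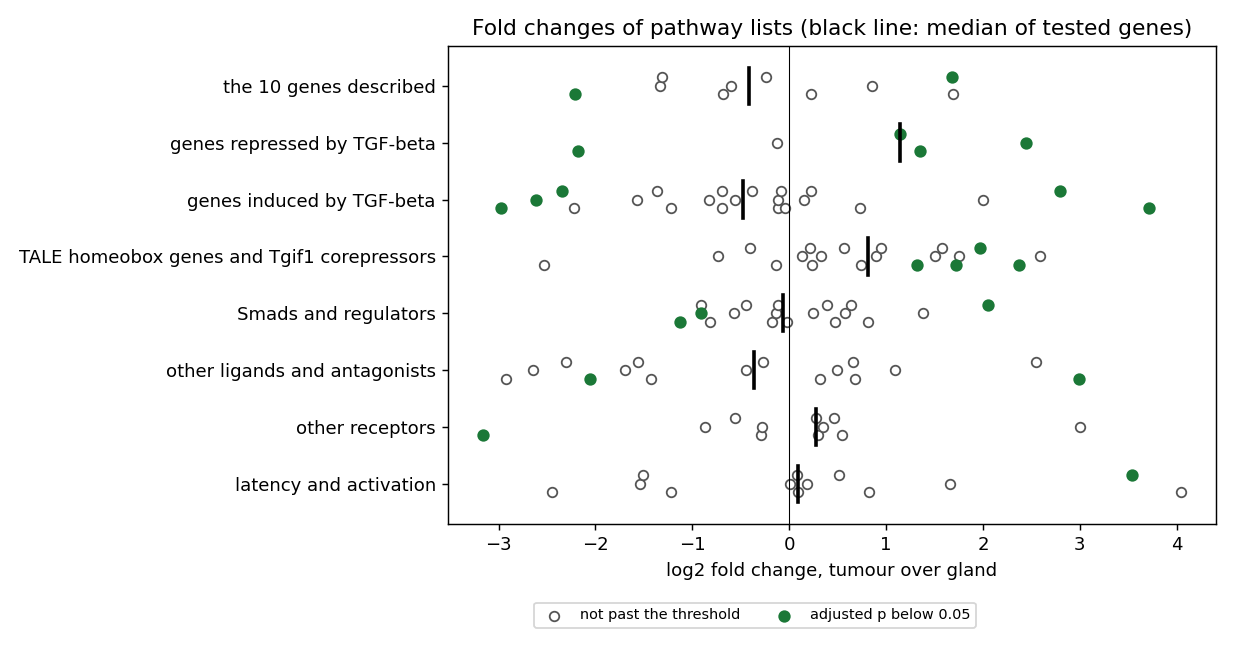
Log2 fold changes, tumour over gland (horizontal axis), of the tested genes of 7 pathway lists and of the 10 genes described, 1 point per gene, green where the adjusted p was below 0.05 and open otherwise, with a black line at each median. Called genes lie on both sides of 0 among the 10 genes described and in the lists of other ligands, Smads, induced genes and repressed genes.

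Among genes with a mean of at least 10 CPM, those whose pattern over the 10 libraries was most like that of Tgif1 came from outside the pathway. By the root mean square difference of centred log2 CPM over 10 libraries, the nearest of 9159 genes were Serf1 (0.270), the histone methyltransferase Ezh2 (0.281), the ribosomal protein gene Rpl15 (0.288), the ceramidase Acer3 (0.296) and the ribosome-bound scaffold Rack1 (0.299). The nearest ranked member was Tgfbr1, at 0.748 and rank 1444, and Smad7 was below the level needed to be ranked. Without tumours 1 and 6 and gland 4, Acer3 ranked 4 and the other 4 genes ranked between 8 and 22, behind Slc39a14, Sms and Tmtc4. Over all 10 libraries these last ranked 687, 1994 and 28, so the nearest genes depended on the libraries used. This likeness was chosen from the same values and is a description of these libraries.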

How the data were processed

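The data were polyA RNA-seq libraries made from TRIzol extracts, per the labels' protocols. The authors deposited whole-number read counts per gene symbol in 1 table, with no scaling between libraries, while Salmon 1.2.0, DESeq and mm9 appear, with no role, in the submitters' processing notes. Whether the counts are rounded Salmon estimates is not given, and reads shared by close paralogues may be uncertain. Strandedness is not stated. Exons of Tgfb2, Tgfb3 and Tgfbr3 share 124 to 297 bases with other gene models in GENCODE M21 (GRCm38), which held at most 16 summed counts.

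Groups came from the labels. Of 13 samples, the 3 from purified epithelium were left out. Whether every library is its own animal is not stated, and the p-values then cover only the variation among these libraries. No 2 libraries were copies (lowest chi-square per degree of freedom 37.8 over 45 pairs).

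Counts were tested across all genes with edgeR 4.0.16 in R 4.3.3 (filterByExpr, TMM, quasi-likelihood F test, no covariate, Benjamini-Hochberg adjusted p below 0.05). Standard errors were taken as the fold change (log2) over the root of its F statistic, and the fit was tested on simulated data. Levels per kilobase use exon-union lengths of GENCODE M21, which may differ from the authors' models. Other settings tried were DESeq2 1.42.0, limma-voom (limma 3.58.1), scaling by RLE or by the upper quartile, a filter of at least 10 CPM in at least 4 libraries or none, age as a covariate, a 2-fold threshold and leaving out libraries.

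The members, pathway lists, markers and alternatives were chosen with earlier results of these data known. Named genes were all members, Fbxw7, up to 4 called genes per list and direction with the smallest adjusted p, and the 5 genes most like Tgif1 among those with a mean of at least 10 CPM (log2 with a prior count of 2). Tgif2, Ctbp1, Itgav and the collagens were added after their values were seen.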

Additional observations from a re-analysis of the deposited data

Results flagged for a closer look

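Within a group of 4 or 6 libraries, 1 library stood apart from the rest by Dixon's test in 8 of 76 looks. Chance gives about 1 in 20 for independent looks at normally distributed values. These looks share libraries and genes and use mostly unlogged CPM, so no excess over chance is read from the count. Tumour 6 stood apart for Tgfb1, at 34.1 CPM with the next tumour at 12.7 CPM, and for Tgfbr2, at 149 CPM with the next at 70.4 CPM. Tumour 5 stood apart in the log2 ratio of Tgif1 to Tgif2, at 0.0989 with the next tumour at 4.47. Tumour 1 stood apart for Cdc25a, at 31.9 CPM with the next tumour at 18.9 CPM. Gland 4 stood apart for Fbxw7, at 83.6 CPM with the next gland at 18.4 CPM, for Pmepa1, at 71.6 CPM with the next at 38.6 CPM, and for Zeb2, at 60.0 CPM with the next at 124 CPM. Gland 1 stood apart for Irx1, at 28.4 CPM with the next gland at 9.88 CPM.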

How the results depend on the processing

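No paired analysis was possible because replicate numbers were given in accession order and pair no libraries. Against 3030 genes called in all, the totals were 5252 with DESeq2, 1899 with age as a covariate, 4640 without tumours 1 and 6 and gland 4, and 1053 to 3521 without 1 library (2006 and 1837 without tumour 2 or 4, and 1053, 1496 and 1769 without gland 1, 2 or 3). Upper-quartile scaling moved the median of all genes by 0.155 and the share of higher calls to 57.9%, against 45.7% with TMM; it was 34.7% with limma-voom. Against 2 members called, there were 4 with upper-quartile scaling, 5 with DESeq2 and with the stricter filter, 1 (Tgfbr3) with limma-voom and with no filter, 4 without tumours 1 and 6 and without these and gland 4, and 0 to 4 without 1 library. The direction of Tgif1 and Tgfbr3 held in all 19 refits, the call of Tgif1 in 11 and that of Tgfbr3 in 15. The Tgfb3 difference turned to -0.054 with limma-voom, -0.30 without tumour replicate 6, -0.13 without tumours 1 and 6 and -0.060 without these and gland 4, and was -0.30 to 0.39 without 1 library. The Tgfb2 difference was 1.04 without tumours 1 and 6 and gland 4.

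Calls in latency and activation (main 1) were 2 with upper-quartile scaling and limma-voom, 4 with DESeq2, 3 with the stricter filter, 4 without tumours 1 and 6, 5 without these and gland 4, and 0 to 3 without 1 library. Other receptors (1) gave 2 with DESeq2, 0 with the stricter filter or age, 2 without tumours 1 and 6, with or without gland 4, and 0 to 2 without 1 library. Other ligands and antagonists (2) gave 1 with upper-quartile scaling, no filter and the stricter filter, 6 with DESeq2, 5 with limma-voom and without tumours 1 and 6, and 0 to 5 without 1 library. Smads and regulators (3) gave 1 with no filter and without tumours 1 and 6 and gland 4, and 1 to 4 without 1 library. The TALE list (4) gave 1 with limma-voom, 2 with no filter, and 1 to 3 without 1 library. Induced genes (5) gave 3 with age, 8 without tumours 1 and 6, 10 without these and gland 4, and 1 to 8 without 1 library. Repressed genes (4) gave 2 with limma-voom, no filter and age, and 2 to 3 without 1 library. The cause of these shifts was not tested. The members had at least 74 counts in every library.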
